A study of Mus musculus with 12 samples.

Results

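Genes of the extracellular matrix and of its remodelling were compared between vitrified and fresh mouse ovarian follicles. The set was taken by symbol: collagen, laminin, nidogen, ADAMTS, matrix metalloproteinase, TIMP, lysyl oxidase, thrombospondin and fibrillin genes, together with Hspg2, Sparc, Dcn and Lum. It held 62 of the 11806 genes listed in the authors' deposited table, and the other symbols that the name rule covers were not analysed here. RNA came from 12 single follicles, 6 vitrified and 6 fresh, isolated from CD-1 mice (an outbred stock) aged 16 days. Each follicle, vitrified (cryopreserved by cooling so fast that water turns to glass and not to ice) or fresh, was grown for 8 days in 0.5% alginate with 10 mIU/mL recombinant follicle-stimulating hormone. Which of the follicles had the same animal as their source is not in the labels, and the p-values treat all 12 as independent. The values are those of the authors' comparison, so the level in each follicle and in each group is not given here, and a level is a total pooled over vitrified and fresh libraries.

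The follicle is wrapped in a basement membrane, a sheet in which a collagen IV network and a laminin network are tied together by nidogens and perlecan. Outside it, theca and stromal cells lay down fibrillar collagens, collagen VI, fibrillin microfibrils and small proteoglycans, and lysyl oxidases cross-link the fibres. A growing follicle must open this matrix, which is the work of ADAMTS proteases and matrix metalloproteinases, held in check by the TIMP inhibitors.

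None of the matrix genes passed the threshold of 0.05 on the authors' adjusted p. The adjusted p is given for 56 of the 62, and 0 of these 56 passed, against 0.529% of the 10963 genes tested in the authors' deposited table. At an unadjusted p under 0.05 there were 6 matrix genes (10.7%), against 7.02% of all tested genes. Of the 6, 2 were higher in vitrified follicles (background 3.24%) and 4 were lower (background 3.79%). The microfibril gene Fbn1 and the inhibitor gene Timp2 were the 2 higher ones, and Adamts1, Adamts19, Col11a1 and Col12a1 the 4 lower ones. When the same statistics were read against a t distribution (10 degrees of freedom), 3 of the 56 remained, against 4.54% of all tested genes. These were Fbn1 and Timp2, higher (background 2.10%), and Adamts1, lower (background 2.44%), so the larger number of lower genes among the 6 was not kept. Lower values outnumbered higher ones, 35 to 21, or 62.5% against 53.2% over all tested genes. The median log2 fold change was -0.12 for the matrix genes and -0.02 for all tested genes. A p that misses the threshold does not show that the groups were alike, and for many of these genes the interval of the change was wide. A 95% interval lying wholly within 2-fold was found for 17 of the 56 (30.4%), against 69.1% of all tested genes. In RNA of whole follicles, fewer cells of a type and less RNA per cell cannot be told apart.

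**Figure D1:**
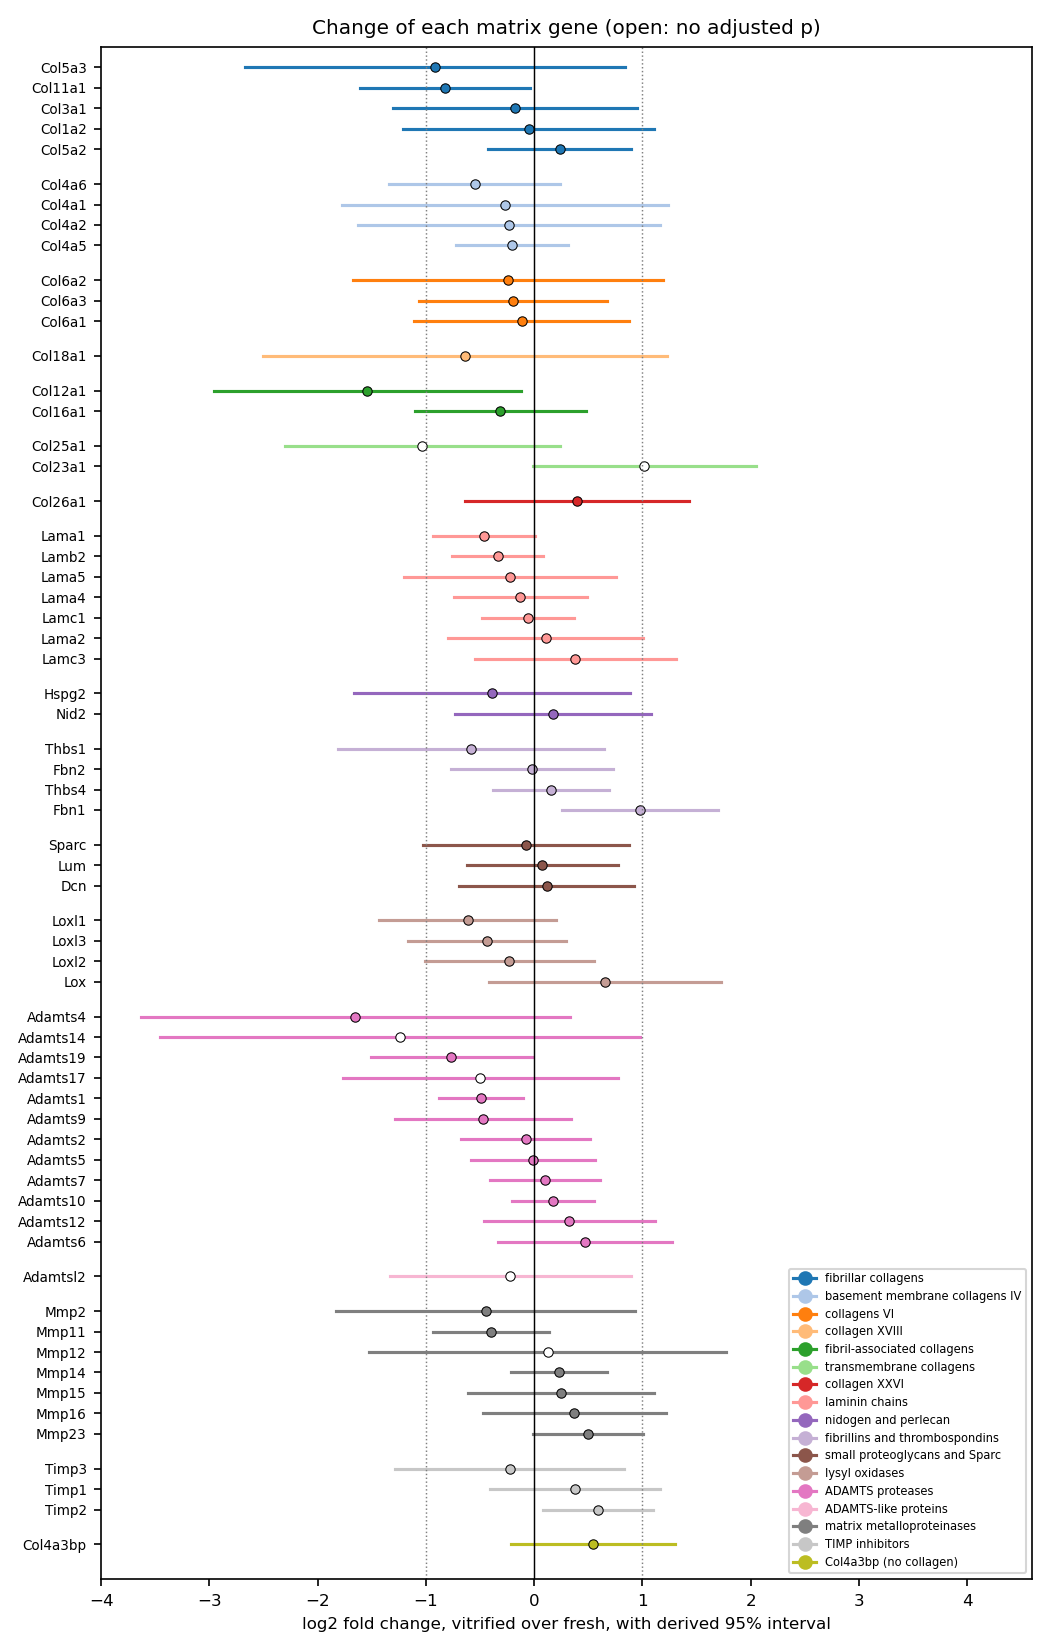
Log2 fold change of each of the 62 matrix genes, vitrified over fresh, grouped by role. Points are the authors' deposited values, open where no adjusted p is given, and bars are 95% intervals derived from the deposited p-values; dotted lines mark 2-fold. Most intervals cross 0, and Fbn1 and Timp2 lie above 0 while Adamts1, Adamts19, Col11a1 and Col12a1 lie below it.

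Levels were compared per kilobase of exon, from the pooled totals. The matrix genes together held 0.545% of the total of all genes. Thbs1, which encodes thrombospondin, a secreted activator of TGF-beta that restrains vessel growth, stood first at 8315 per kb, and its total of 50498 ranked 35 among all genes in the authors' deposited table. It made up 38.9% of the total of the set. Sparc, a matrix protein that binds collagen, followed at 3191 per kb. Adamts1, a protease that cuts the proteoglycan versican and is known for its part in ovulation, stood at 879 per kb, next to the fibrillar collagen gene Col3a1 at 848 per kb. Col6a1 had 662, Col4a1 651 and the perlecan gene Hspg2 584 per kb. At the other end, Col25a1 had 3.94 and Col12a1 4.26 per kb. With no value per follicle, the spread of these levels is not known, so their order is a description.

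**Figure D2:**
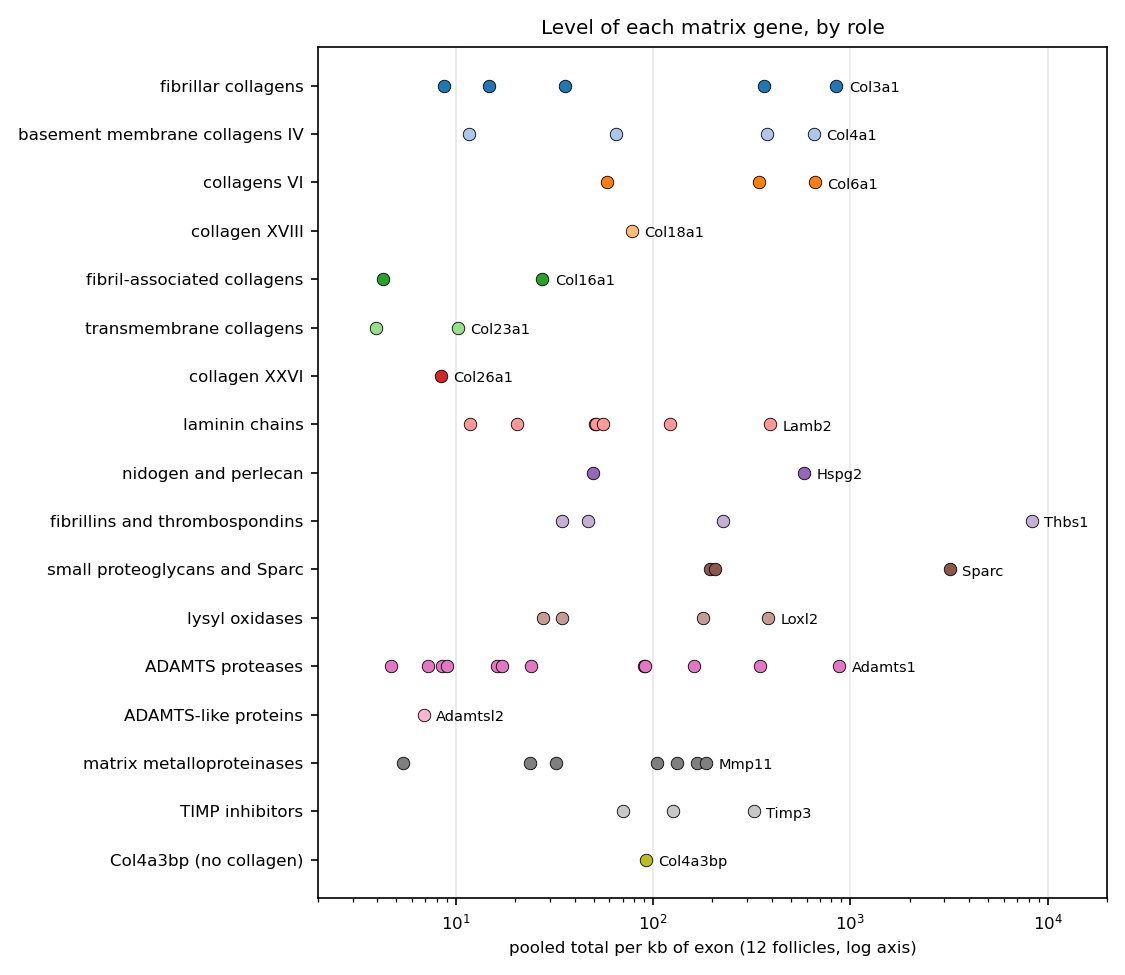
Pooled total per kilobase of exon for each matrix gene (log axis), by role, with the highest gene of each role named. Points run from 3.94 per kb for Col25a1 to 8315 per kb for Thbs1.

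Adamts1 and Col3a1, a pair with nearly the same level per kb, differed in how precisely their change was measured. Their upstream sequences are shown as a description, and a link between sequence and precision was not tested. The error of a log2 fold change was derived from the deposited fold change and p-value. It was 0.20 for Adamts1 and 0.58 for Col3a1. The stretches are the 250 bases before the RefSeq transcription start in build GRCm38.p6, and none of their bases lies in a GENCODE exon. Adamts1 is shown from chr16:85803114-85803363 on the minus strand and Col3a1 from chr1:45311288-45311537 on the plus strand, each 5′ to 3′. Capitals mark matches on either strand to the TATA box TATAAA, the GC box GGGCGG, the core CCAAT of the CCAAT box, or the hypoxia core ACGTG.
Adamts1: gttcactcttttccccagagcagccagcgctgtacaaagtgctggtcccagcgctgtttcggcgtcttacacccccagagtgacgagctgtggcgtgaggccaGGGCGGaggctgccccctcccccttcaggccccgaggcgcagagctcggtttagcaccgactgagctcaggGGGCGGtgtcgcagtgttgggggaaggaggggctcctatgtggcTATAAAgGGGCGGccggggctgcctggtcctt
Col3a1: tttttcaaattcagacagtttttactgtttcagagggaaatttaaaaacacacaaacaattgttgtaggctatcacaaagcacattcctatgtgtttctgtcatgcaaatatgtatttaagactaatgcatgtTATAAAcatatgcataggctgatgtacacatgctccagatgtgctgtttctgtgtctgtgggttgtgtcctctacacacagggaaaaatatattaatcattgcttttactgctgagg
The Adamts1 stretch holds TATAAA starting 32 bases before the start, and GGGCGG at 147, 76 and 25 bases before it. The only match in the Col3a1 stretch is TATAAA at 117 bases before the start. G and C made up 65.6% of the Adamts1 stretch and 35.2% of the Col3a1 stretch. RefSeq windows were matched by symbol for 37 of the 62 genes. Of these 37 genes, 26 (70.3%) held GGGCGG, against 65.9% of the genes of the whole table with a window and 35.4% of all genes with one. TATAAA was found for 3 (8.11%), against 7.61% of the table's genes and 14.3% of all genes. CCAAT was found for 13 (35.1%), against 41.4% and 37.5%. ACGTG, the core of the hypoxia response element, was found for 4 (10.8%), against 25.8% and 18.5%. A match of letters is a description and not a site of binding.

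The collagen genes as a group had 14 of 16 tested values below 0, against 53.2% of all tested genes, with a median log2 change of -0.24, and 0 passed the threshold. Among fibrillar collagens, Col3a1, at chr1:45311538-45349706 of GRCm38, had a log2 change of -0.18 (95% interval -1.31 to 0.95) and Col1a2 one of -0.05 (-1.21 to 1.11) in the authors' deposited table. The interval of Col3a1 reaches beyond 2-fold on the lower side and that of Col1a2 on both sides. Col11a1, a chain of a collagen that nucleates fibrils, was 1.77-fold lower at a total of 187 (p = 0.041, adjusted p = 0.67) in the authors' deposited table. Col5a3 stood at -0.92 and Col5a2, from a like fibril-nucleating collagen, at 0.24 in the authors' deposited table. Col12a1, of a collagen bound to the surface of fibrils, was 2.91-fold lower (p = 0.033, adjusted p = 0.63), on a total of only 65 in the authors' deposited table. Col16a1 of the same class had an interval from -1.10 to 0.48 around its value of -0.31 in the authors' deposited table.

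The basement membrane genes gave 4 collagen IV values below 0 out of 4, against 53.2% of all tested genes, and each of their intervals crossed 0. Col4a1 had a log2 change of -0.27 (-1.78 to 1.24) and Col4a2 one of -0.23 (-1.63 to 1.16) in the authors' deposited table. These genes are transcribed in opposite directions on chromosome 8, with RefSeq starts at 11312826 for Col4a1 and 11312805 for Col4a2, 21 bases apart. Their changes differed by 0.04, and their derived errors of 0.77 and 0.71 were also close. Col4a5 and Col4a6, another pair in opposite directions, on chromosome X with 1308 bases between them, stood at -0.20 and -0.55 in the authors' deposited table. Of the 7 laminin chain genes, 5 were below 0, against the same 53.2% of all tested genes. Lama1, a chain of early and embryonic basement membranes at chr17:67697259-67822647 of GRCm38, was 1.38-fold lower (p = 0.053, adjusted p = 0.72) in the authors' deposited table. Lamb2 stood at -0.34 (-0.76 to 0.09) and Lamc1, the gamma chain shared by most laminins, at -0.06 (interval -0.48 to 0.37) in the authors' deposited table. The intervals of Lama1, Lamb2, Lama4 and Lamc1 lay within 2-fold, which was so for 4 of the 7 laminin genes and for 1 of the 4 collagen IV genes, Col4a5. Lama4, a laminin chain of vessel walls, stood at -0.13, Lama5 at -0.22, Lama2 at 0.11 and Lamc3 at 0.38 in the authors' deposited table. Hspg2, at chr4:137468769-137570630 of GRCm38, had a log2 change of -0.39 (-1.67 to 0.89), and the nidogen gene Nid2 one of 0.17 (-0.73 to 1.08) in the authors' deposited table. Col18a1, which yields the vessel inhibitor endostatin, stood at -0.64 with an interval from -2.51 to 1.23 in the authors' deposited table.

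The collagen VI genes, whose product forms beaded filaments around cells, stood at -0.11 for Col6a1 (interval -1.11 to 0.88), -0.24 for Col6a2 (-1.68 to 1.19) and -0.20 for Col6a3 in the authors' deposited table. None of their intervals lay within 2-fold (0 of 3). Dcn and Lum, small proteoglycans that space collagen fibrils and lie 46984 bases apart on chromosome 10, stood at 0.12 (interval -0.69 to 0.92) and 0.08 (-0.62 to 0.78, log2 scale) in the authors' deposited table. Sparc had a log2 change of -0.07 (-1.03 to 0.88) and Thbs1 one of -0.58 (-1.82 to 0.65) in the authors' deposited table. Fbn1, the main microfibril gene, at chr2:125300594-125507993 of GRCm38, was 1.97-fold higher (interval 0.25 to 1.70 on the log2 scale, p = 0.0081, adjusted p = 0.34) in the authors' deposited table. It had the lowest p of the set. Antisense exons of Gm9913 cover 20.1% of the exon bases of Fbn1, and the use of strand in counting is unknown here, so part of its total is uncertain. Fbn2 stood at -0.02 and Thbs4 at 0.15 with an interval from -0.38 to 0.69 in the authors' deposited table.

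The lysyl oxidase genes were mixed. Lox stood at 0.66 (-0.41 to 1.73), Loxl1 at -0.61 (-1.43 to 0.20), Loxl2 at -0.23 (-1.01 to 0.55) and Loxl3 at -0.44 in the authors' deposited table. The lowest of their p-values was that of Loxl1, at 0.14 in the authors' deposited table. Of the 50-base windows of Loxl2, 55.0% occur in another gene's transcripts, and 11.6% of the exon bases of Loxl3 are antisense to Htra2, so these values are uncertain.

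Among the proteases, Adamts1, at chr16:85793827-85803113 of GRCm38, was 1.41-fold lower at a total of 4663 (p = 0.013, adjusted p = 0.45) in the authors' deposited table. Its unadjusted 95% interval ran from -0.88 to -0.10 and so held neither 0 nor a 2-fold change. Adamts5, another protease of proteoglycans and its neighbour 53059 bases away, stood at -0.01, with an interval from -0.59 to 0.56, in the authors' deposited table. Adamts4, of the same activity, had a log2 change of -1.65 but an interval from -3.63 to 0.33 in the authors' deposited table. Adamts19 was 1.70-fold lower (p = 0.044, adjusted p = 0.69) in the authors' deposited table. Adamts2, which trims the amino end of procollagens, stood at -0.08 (-0.67 to 0.52) and Adamts10, which acts with fibrillin, at 0.17 in the authors' deposited table. Adamts9, which shares exon bases with antisense genes, stood at -0.47, Adamts6 at 0.47, Adamts12 at 0.32 and Adamts7 at 0.10 in the authors' deposited table. In all, 4 of the 10 tested ADAMTS genes were higher in vitrified follicles (background 46.8%) and 6 lower (background 53.2%), with a median of -0.05. With Adamts14 and Adamts17, which have no adjusted p and were both below 0, it was 4 higher and 8 lower of 12, and the median was -0.28.

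The matrix metalloproteinase genes had 4 of 6 tested values above 0, against 46.8% of all tested genes, and a median of 0.24, with 0 past the threshold and 0 at an unadjusted p under 0.05. Mmp14, the membrane-bound enzyme that activates the gelatinase encoded by Mmp2, stood at 0.23 (-0.21 to 0.67) and Mmp2 itself at -0.45 (-1.83 to 0.93) in the authors' deposited table. Mmp23 was 1.41-fold higher (p = 0.056, adjusted p = 0.73) and Mmp11 1.32-fold lower (interval -0.93 to 0.13, p = 0.14) in the authors' deposited table. Mmp16 and Mmp15, also membrane-bound, stood at 0.37 and 0.25 in the authors' deposited table. Timp2, an inhibitor that also serves as the bridge through which Mmp14 activates the Mmp2 product, had a log2 change of 0.59 (interval 0.08 to 1.10, p = 0.024, adjusted p = 0.56) in the authors' deposited table. Timp1 stood at 0.38 (-0.40 to 1.16) and Timp3, the inhibitor that binds to the matrix, at -0.23 (interval -1.29 to 0.83) in the authors' deposited table. Antisense exons of Syn3 cover 21.3% of the exon bases of Timp3.

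No adjusted p is given for 6 of the 62 genes, each with a total under 59.5. Their log2 fold changes were 1.02 for Col23a1 (p = 0.053), -1.03 for Col25a1 (p = 0.11) and -1.24 for Adamts14 (p = 0.27) in the authors' deposited table. Adamts17 stood at -0.50, Adamtsl2, a microfibril-binding protein without protease activity, at -0.22, and Mmp12, the macrophage elastase gene, at 0.12 in the authors' deposited table. Col26a1, at a total of 68, had an interval from -0.64 to 1.43 around 0.39 in the authors' deposited table. Col4a3bp matches the name rule but encodes a ceramide transfer protein and no collagen; it stood at 0.54 (p = 0.16) in the authors' deposited table. Without it the median of the set was -0.13.

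Many matrix genes had a large derived error. This error holds counting error and the spread between follicles together. Each gene's error was set beside those of the 200 genes nearest to it in total. An error above the 90th percentile of those genes was found for 31 of the 56 tested matrix genes (55.4%), against 10.0% of all tested genes. Among genes with a total of at least 1000, this was so for 12 of 17 matrix genes (70.6%), against 9.87% of 2007 genes. The median error of these 17 was 0.51, against 0.20 for all genes of such totals. Col4a1 had 3.96 times the median error of genes of like total, Col6a2 3.66 times and Col4a2 3.53 times. Hspg2 had 3.18 times, Col1a2 3.02 times, Thbs1 2.96 times and Col3a1 2.81 times that median. The highest ratio was 4.26, for Col18a1.

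**Figure D3:**
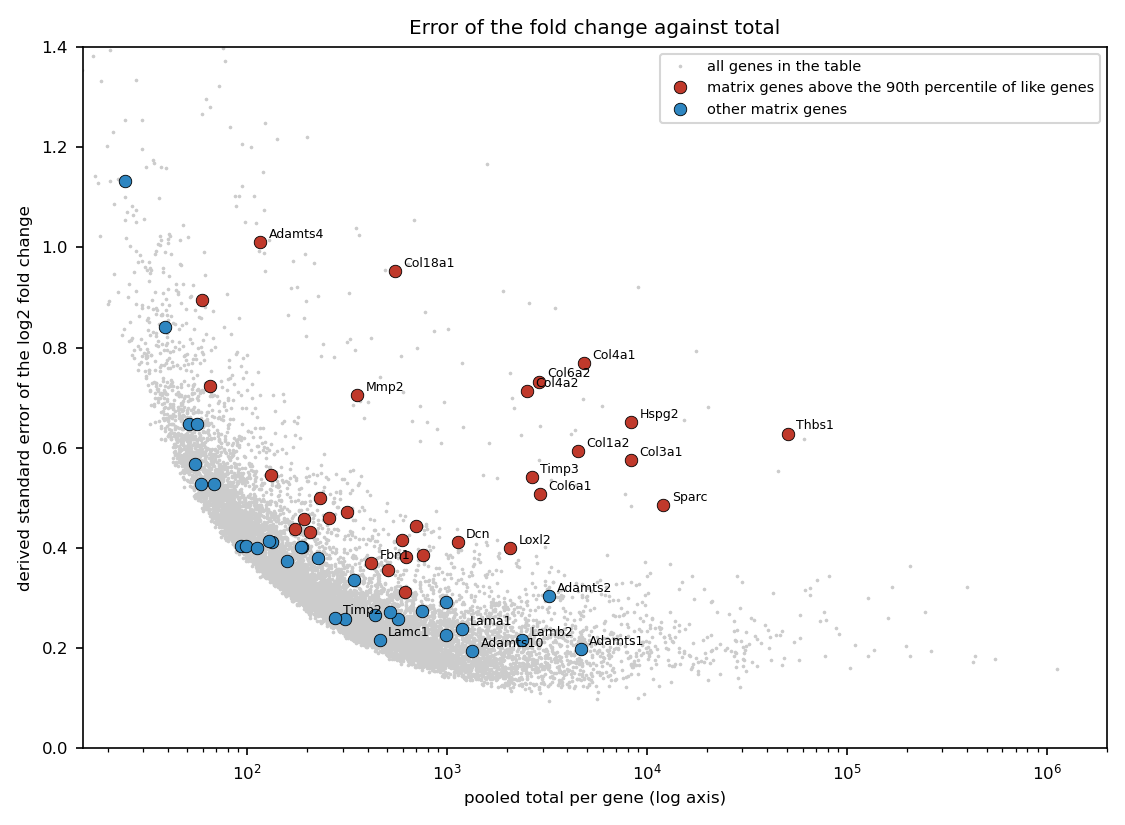
Derived standard error of the log2 fold change against the pooled total of each gene (log axis). Grey points are all genes, of which 44 with an error above 1.4 lie outside the plot; red and blue points are matrix genes above and not above the 90th percentile of genes of like total. Col4a1 at 0.77, Hspg2 at 0.65 and Thbs1 at 0.63 stand far above genes of like total, while Adamts1 at 0.20 and Lamb2 at 0.22 lie among them.

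These errors set what change could be called. The last gene past that threshold on the adjusted p lay 3.66 derived errors from 0. A gene with the error of Col4a1 would have needed a change of 7.04-fold to reach that point, one with that of Hspg2 5.21-fold, and one with that of Col18a1 11.2-fold. For Adamts1 that size was 1.66-fold, for Lamc1 1.73-fold and for Lama1 1.83-fold. It was 4.30-fold for Col3a1 and 4.92-fold for Thbs1, so a 2-fold change of Col3a1, Col4a1, Hspg2 or Thbs1 was not detectable at these errors.

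The roles were not alike in this. All 3 collagen VI genes, the 2 basement membrane linker genes analysed (Nid2 and Hspg2) and all 3 of Dcn, Lum and Sparc had large errors in the sense above. Of the 4 tested lysyl oxidase genes it was 3, and of the 7 laminin genes 4, with a median ratio of 1.38. For fibrillar collagen genes it was 3 of 5, for collagen IV genes 2 of 4 and for TIMP genes 1 of 3. For tested matrix metalloproteinase genes it was 3 of 6, with a median ratio of 1.24. Among the 10 tested ADAMTS genes it was 1, Adamts4, and the median ratio was 1.12. Among enzymes that fold and modify collagen chains inside the cell it was 1 of 20, Colgalt2, with a median ratio of 0.95. Genes of procollagen processing and fibre assembly, which are not in the matrix set, also had many large errors, 12 of 27 (44.4%) with a median ratio of 1.31. Of the plasminogen system and surface proteases it was 5 of 18 (27.8%), with a median ratio of 1.03. The difference between roles or lists was not tested.

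Marker genes of cell types showed the same measure at both ends. For granulosa markers 0 of 9 had a large error, with a median ratio of 0.81. For theca markers it was 7 of 8, for endothelial markers 5 of 6, for oocyte markers 5 of 6, and for stroma and fibroblast markers 6 of 9. Of the stromal list Col1a2, Dcn and Lum are matrix genes counted above, and without them it was 3 of 6. The theca marker without a large error was Hsd3b1, with a ratio of 0.87. Its total of 435485 made up most of the 482257 of the theca list. The smooth muscle actin gene Acta2, a marker of theca and vessel wall, had 4.40 times and the pericyte receptor gene Pdgfrb 3.47 times the median error of genes of like total. The endothelial cadherin gene Cdh5 had 4.67 times that median. All 6 tested endothelial markers had log2 fold changes below 0, from -1.66 to -0.27 with a median of -0.97, and 0 passed or had an unadjusted p under 0.05 in the authors' deposited table. The theca markers were higher for 6 of 8 (median 0.83), with Insl3, Star and Aldh1a1 at an unadjusted p under 0.05, and the oocyte markers for 6 of 6 (median 0.81), with 0 past the threshold in either list. Of all tested genes, 46.8% were higher and 53.2% lower, and 3.24% were higher at an unadjusted p under 0.05. The stromal list had 4 higher and 5 lower values (median -0.05) and the granulosa list 5 higher and 4 lower (median 0.03), again with 0 past the threshold. In the granulosa list 1 of 9 had an unadjusted p under 0.05, the FSH receptor gene Fshr. It was higher at 0.67 (interval 0.14 to 1.20, p = 0.013, adjusted p = 0.44) in the authors' deposited table. Fshr stayed under 0.05 with the t distribution. Tested stromal values ran from -0.75 for Pdgfrb to 0.46 for Pdgfra, with Acta2 at -0.67. Tagln, of the same list, has no adjusted p. It stood at -3.27 (interval -5.88 to -0.65, p = 0.014) on a total of 28 in the authors' deposited table. The 7 endothelial markers analysed had a pooled total of 2586, and the 9 granulosa markers one of 2159820. Of 8 immune markers 1 was analysed, Lyz2. It had a log2 change of -1.05 (interval -2.05 to -0.05, p = 0.040, adjusted p = 0.67) in the authors' deposited table. Lyz2 did not stay under 0.05 with the t distribution. Of 7 surface epithelium markers 2 were analysed, Krt8 and Upk3b, with a pooled total of 139 in the authors' deposited table. Whether the number of theca, stromal or endothelial cells left on each follicle has a part in the values of the matrix genes was not tested.

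**Figure D4:**
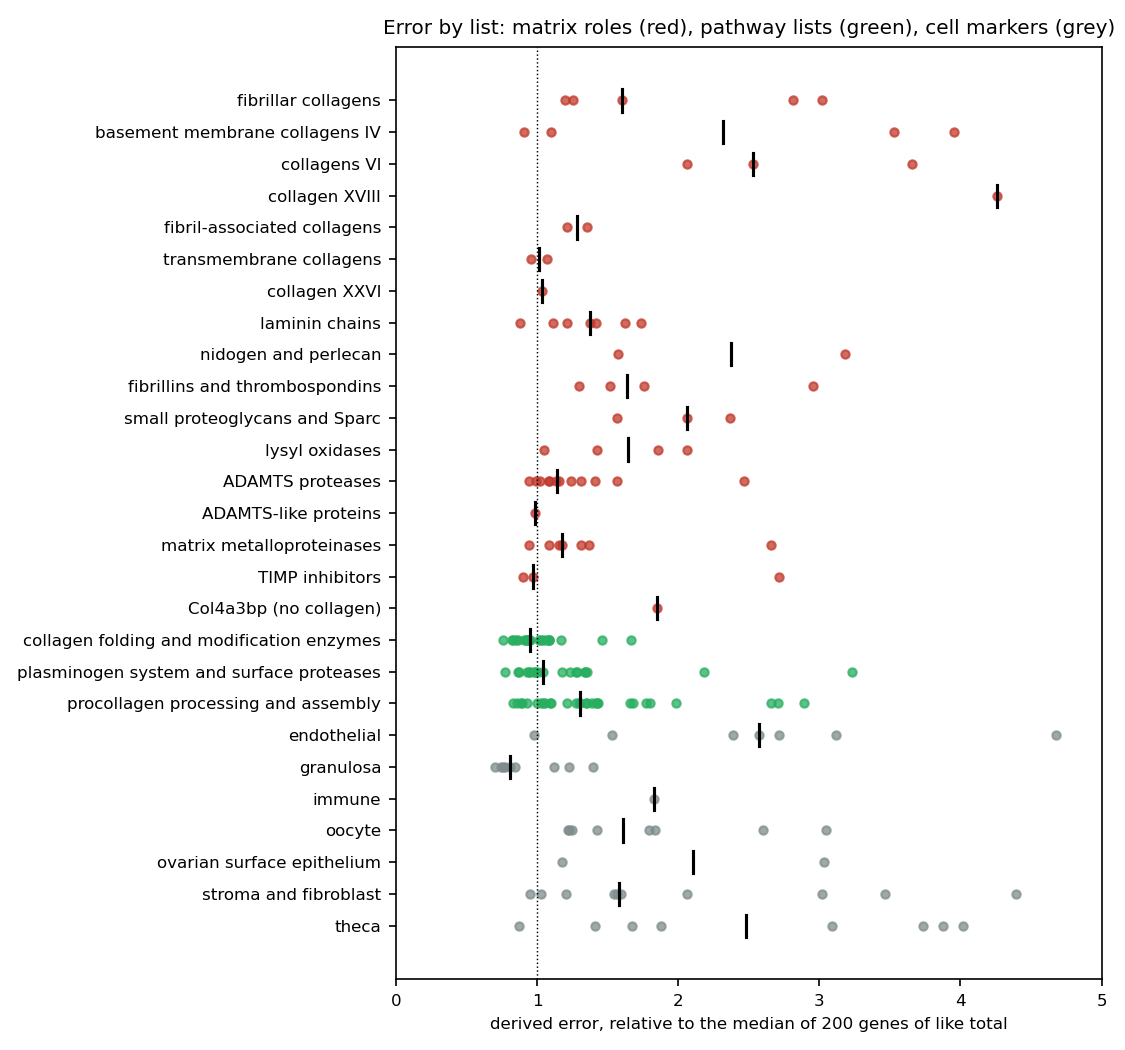
Derived error of each gene relative to the median of 200 genes of like total, for matrix roles (red), pathway lists (green) and cell markers (grey). Points are genes, with or without an adjusted p, black ticks are medians and the dotted line marks 1; Col1a2, Dcn and Lum appear both under their roles and under stroma. The medians of granulosa markers and collagen folding enzymes lie at 0.81 and 0.95, though Fshr and Plod1 lie well above 1 and Colgalt2 reaches 1.67, while Col4a1 and Col18a1 lie near 4.

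The enzymes that make collagen ready for secretion split evenly, with 10 higher and 10 lower of 20 tested, a median log2 change of 0.00 and 0 past the threshold. Over all tested genes, 46.8% were higher and 53.2% lower. The 3 of 20 with an unadjusted p under 0.05 were all lower, against 7.02% of all tested genes in either direction and 3.79% lower. With the t distribution 1 of them remained, Serpinh1. They were the collagen chaperone gene Serpinh1 at -0.51 (p = 0.019), the prolyl hydroxylase subunit gene P4ha1 at -0.31 (p = 0.039) and P4hb, its partner subunit and a disulfide isomerase, at -0.35 (p = 0.045) in the authors' deposited table. The intervals of 19 of the 20 lay within 2-fold. Genes of procollagen processing and fibre assembly had 16 higher and 11 lower of 27, a median of 0.03 and 0 past the threshold. The microfibril gene Mfap2 was lower at -0.79 (p = 0.0049, adjusted p = 0.29), opposite in sign to Fbn1, and the fibulin gene Fbln1 lower at -0.50 (p = 0.0081) in the authors' deposited table. Smoc2, a relative of Sparc, was higher at 0.70 (p = 0.011, adjusted p = 0.41) in the authors' deposited table. Of the plasminogen system and surface proteases, 10 were higher and 8 lower of 18, with a median of 0.04 and 0 past the threshold. Adam8 stood at 0.76 (p = 0.048) and Bsg, an inducer of matrix metalloproteinases, at -0.37 (p = 0.047) in the authors' deposited table, and neither stayed under 0.05 with the t distribution.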

How the data were processed

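RNA-seq of 6 vitrified and 6 fresh single follicles, grouped by sample title, was analysed from 1 comparison table. The build mm10 and the tools HISAT2, Bowtie2, DESeq2 and Partek come from the submitters' processing notes, which give them no role or version. Its columns, per the file headers, hold the log2 fold change of vitrified over fresh, the same as a signed fold, the p-value and its step-up adjustment, and a total. The total deposited by the authors is a signal pooled over libraries, not whole counts, and no depth per follicle is given.

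With Python 3.11.15 and SciPy 1.17.1, a standard error was derived as the log2 fold change over the normal quantile of the p-value, and a 95% interval from it. This assumes a two-sided normal test, and the steps were tested on simulated data. Leaving out follicles or pairing them was not possible without values per follicle. Coordinates and exon lengths came from GENCODE release 21 of the mouse (GRCm38, called mm10 elsewhere), by symbol for all 62 genes, and upstream sequences from RefSeq (GRCm38.p6). Shared sequence was measured in 50-base windows taken every 25 bases. Members and gene lists were chosen with earlier results of these data known. Each matrix gene could be named; fuller values (an interval, a p or both) went to those at an unadjusted p under 0.05, to the most abundant of each role and to reference genes fixed with the lists. The comparison of errors was added after the values were seen.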

Additional observations from a re-analysis of the deposited data

How the results depend on the processing

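The count of 0 matrix genes past the adjusted p was also 0 with fold changes centred on the median of tested genes, with a t distribution of 10 degrees of freedom, with a total of at least 120 and with no filter on totals. The t distribution raises every p, so with it this count could not exceed 0. The count at an unadjusted p under 0.05 was 3 with the t distribution, against 6, and those lost were Adamts19, Col11a1 and Col12a1, all lower in vitrified follicles. Centring turned Adamts5 to 0.0072 and Fbn2 to 0.0011. The count of large errors, compared with 100 or 400 genes of like total, with an error from a t distribution or at the 95th percentile, ranged from 26 to 32, against 31; these 4 alternatives were chosen after seeing the data. The median of the fibril-associated collagens was -0.31 at a total of at least 120, against -0.93, since Col16a1 alone is left. That of the ADAMTS genes was -0.28 with no filter on totals and -0.03 with centring, against -0.05. The count of matrix genes with an interval within 2-fold was 18 with centring and 15 with the t distribution, against 17. Of the other results recomputed under the alternatives, none changed sign or side of the threshold. The t distribution leaves each log2 fold change as it is, so under it no sign could change. No paired analysis was possible because the table holds no value per follicle, and for the same reason leaving out each follicle was not run. Genes of low total carry large errors, so changes there were often not detectable.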
